A study of Mus musculus with 10 samples.

Results

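The transcripts of 10 core genes of the circadian clock were followed in retinas of wild-type and rd10 mice. Clock and Arntl (also named Bmal1) encode the activators of the clock, Per1, Per2, Per3, Cry1 and Cry2 its repressors, Nr1d1 and Nr1d2 the nuclear receptors REV-ERB alpha and beta, and Dbp an output factor. The genes were chosen by name, as textbook components of the clock, at a time when their levels in these libraries and the difference between the batches were already known, so those levels are given as a description and no test is read from them. All 10 were present in a gene table of 11702 genes.

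In the clock, the CLOCK and BMAL1 proteins bind E-boxes in DNA and switch on the Per, Cry, Nr1d and Dbp genes. PER and CRY proteins accumulate and shut this activity down, which closes a loop of about a day. In a second loop, REV-ERB proteins repress Arntl and Cry1 through response elements that ROR proteins use to activate them. As a result Arntl, Clock and Cry1 transcripts peak many hours away from those of Nr1d1, Dbp and the Per genes, and a tissue sampled at another hour shows the opposed groups shifted against each other. The retina holds a clock of its own, which is set by light and times dopamine release, melatonin synthesis and visual sensitivity.

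Retinal RNA came from 10 female mice at postnatal day 36. WT mice received DMSO (libraries W1 to W4), and rd10 mice received either DMSO (D1, D2 and D3) or halofantrine (HAL; H1, H2 and H3). The rd10 mice are of the strain B6.CXB1-Pde6brd10/J and carry a mutation in Pde6b, the beta subunit of the rod phosphodiesterase, so their rods degenerate in the first weeks of life. Halofantrine, an antimalarial drug, was given at 20 μM in 1 μL into the vitreous at postnatal days 10 and 24 under ketamine and xylazine, and all control mice had the same injections of vehicle. The strain of the WT mice and the number of retinas per library are not given in the sources used here. W1 to W4, D1, D2 and H1 are labelled batch 1, and D3, H2 and H3 are labelled batch 2, with no statement of what a batch was. The sample titles also carry set names, and no set name is shared between WT and rd10 libraries, so set and genotype cannot be told apart. Within batch 2, D3 carries another set name than H2 and H3, so set and treatment cannot be told apart there, whereas D1, D2 and H1 share 1 set name. The mice lived under a 12-hour light/dark cycle, and the hour of collection is not given in the sources used here.

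The libraries held 15512212 to 38160436 counts on genes, and D3 was the shallowest. Levels are given as CPM, gene counts divided by a TMM-scaled library total so that the 10 libraries can be compared. Markers of rods, cones, bipolar, amacrine, ganglion and Muller glia cells were detected in all libraries. Pde6b stood at 2699 to 2855 CPM in W1 to W3, at 125.0 to 387 CPM in the rd10 libraries and at 93.1 CPM in W4. The library labelled WT W4 therefore goes against its label, and the comparisons with WT are given with and without it. By its title it is also the only WT library outside the set of W1 to W3. Summed over 8 rod genes, the level was 68237 to 72133 CPM in W1 to W3, 2443 CPM in W4, 3184 to 3540 CPM in rd10 batch 1 and 6856 to 10112 CPM in rd10 batch 2. In whole retinas, fewer cells of a type and less RNA per cell cannot be told apart.

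The sequence words through which the loops act were searched on both strands of the promoter windows of the members, 250 bases before to 50 after each start site in the RefSeq table (GRCm38.p6), where 9 of the 10 genes had 13 windows. Per2 had no entry there. The words were the E-box CACGTG, the D-box TTANNTAA that DBP and its relatives bind, the ROR and REV-ERB words TAGGTCA and TGGGTCA, and the cAMP element TGACGTCA. The matches, shown in capitals within their flanks because they are the words named above, were these.
Per1 E-box, chr11:69098759-69098812, plus strand, 166 bases before the start site: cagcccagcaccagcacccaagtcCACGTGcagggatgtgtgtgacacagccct
Cry1 E-box, chr10:85185085-85185138, minus strand, 60 bases before the start site: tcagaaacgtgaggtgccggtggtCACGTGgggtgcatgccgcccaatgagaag
Per3 first D-box, chr4:151044839-151044894, minus strand, 205 bases before the start site: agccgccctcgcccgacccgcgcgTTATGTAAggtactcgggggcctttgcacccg
Per3 second D-box, chr4:151044792-151044847, minus strand, 158 bases before the start site: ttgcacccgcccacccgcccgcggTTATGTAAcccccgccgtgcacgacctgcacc
Arntl REV-ERB word, chr7:113207530-113207558, plus strand, at position 31 after the start site: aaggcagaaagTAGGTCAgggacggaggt

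Of all 32851 windows of 300 bases in the table, 7.15% held the E-box, 6% the D-box, 6.45% a ROR or REV-ERB word and 1.79% the cAMP element. The D-box windows of Per3 overlap by their flanks. The windows of Cry2, Clock, Nr1d1, Nr1d2 and Dbp held none of these letters, which says nothing of sites elsewhere in those genes. A match describes the sequence and is no measured binding site.

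Arntl encodes BMAL1, the partner without which CLOCK does not bind DNA, and its level separated W1 to W3 from every other library. It stood at 116, 113 and 120 CPM in W1, W2 and W3 and at 60.7 CPM in W4. In rd10 retinas it stood at 56.3, 56.0 and 75.2 CPM in D1, D2 and D3 and at 54.7, 66.6 and 63.7 CPM in H1, H2 and H3. The batch 2 libraries D3, H2 and H3 were the highest of the rd10 libraries and did not overlap with batch 1. The fitted log2 fold change of rd10 DMSO against WT was -0.71 (SE 0.26), and it was -0.89 (SE 0.12) without W4 and -1.04 (SE 0.05) with D3 left out as well, a 2.06-fold lower level. Exons of Arntl overlap those of Gm45355 on the other strand in GENCODE M21.

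Clock, the DNA-binding partner of BMAL1, varied far less. Its level was 215, 223, 213 and 212 CPM in W1 to W4, 201, 198 and 218 CPM in D1 to D3 and 188, 187 and 192 CPM in H1 to H3. The halofantrine libraries were the lowest, and D3 lay among the WT libraries. The difference of rd10 DMSO against WT was -0.07 (SE 0.08) on the log2 scale and -0.07 (SE 0.06) without W4, and its sign turned to 0.09 when libraries were scaled by size alone.

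Per2, a repressor whose transcription also responds to light and to glucocorticoids, was the member with the widest gap in the other direction. It stood at 40.1, 37.0 and 41.3 CPM in W1 to W3 and at 50.9 CPM in W4, between the groups. The rd10 libraries held 68.2, 68.9 and 66.3 CPM under DMSO and 76.1, 70.4 and 71.1 CPM under halofantrine. Every rd10 library was above every WT library, and the batches overlapped. The log2 fold change of rd10 DMSO against WT was 0.68 (SE 0.12) with W4 and 0.79 (SE 0.06) without it.

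Per1, the other light-responsive repressor of the family, was lower in rd10 and not higher. Its level was nearly constant in W1 to W3 at 144, 145 and 144 CPM, and W4 had 109.5 CPM. D1, D2 and D3 held 129.9, 113.5 and 107.3 CPM, and H1, H2 and H3 held 133.5, 126.8 and 128.6 CPM. The 6 rd10 libraries lay below W1 to W3, and the difference of rd10 DMSO from WT was -0.21 (SE 0.13) with W4 and -0.29 (SE 0.08) without it.

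Per3, a period gene that is not needed for rhythms as such, ran at 182, 177, 185 and 199 CPM in W1 to W4. D1 and D2 held 200.4 and 225 CPM, whereas D3 held 159 CPM, the lowest of the 10 libraries. H1, H2 and H3 held 224, 196 and 218 CPM. The groups overlapped, and the log2 fold change of rd10 DMSO against WT, 0.07 (SE 0.12), was 0.12 (SE 0.12) without W4, 0.24 (SE 0.06) without W4 and D3 and -0.04 without D2.

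Cry1, the repressor that closes the cycle late and that carries the E-box shown above, was lowest in W4, at 35.6 CPM. W1 to W3 held 51.8, 54.9 and 57.8 CPM. The rd10 batch 1 libraries D1, D2 and H1 held 43.4, 39.6 and 38.6 CPM, all below W1 to W3, and the batch 2 libraries D3, H2 and H3 held 56.3, 49.6 and 48.3 CPM. Thus D3 lay within the range of W1 to W3, and the batches did not overlap. Against WT the log2 fold change of rd10 DMSO was -0.11 (SE 0.20), which turned to 0.07 under scaling by library size alone, was -0.23 (SE 0.13) without W4 and was -0.39 (SE 0.07) without W4 and D3.

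Cry2, its sister repressor with a nearly flat daily profile, differed between W1 to W3 and all other libraries. Its level was 149.8, 151.3 and 143.7 CPM in W1 to W3 and 206 CPM in W4. The 6 rd10 libraries held 197.7 to 217.7 CPM, with D3 at 203 CPM beside D1 and D2 at 204.0 and 204.1 CPM. The log2 fold change of rd10 DMSO against WT was 0.32 (SE 0.14) with W4 and 0.47 (SE 0.05) without it. Exons of Cry2 overlap those of D930015M05Rik on the other strand.

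Nr1d1 encodes REV-ERB alpha, the repressor of Arntl and Cry1, and split the rd10 libraries by batch. Its level was 242, 237 and 255 CPM in W1 to W3 and 339.6 CPM in W4. D1 and D2 held 350.2 and 349.3 CPM but D3 held 239 CPM, and H1 held 409 CPM but H2 and H3 held 276 and 263 CPM. All 3 batch 1 libraries of rd10 were above W1 to W3, and D3 was inside their range. The log2 fold change of rd10 DMSO against WT was 0.22 (SE 0.18) with all 7 libraries, 0.37 (SE 0.14) without W4 and 0.52 (SE 0.05) without W4 and D3. Exons of Nr1d1 overlap exons of Thra on the other strand in GENCODE M21. The library kit kept strand, but whether the counting used it is not given in the sources used here. Thra stood at 222.8 to 249.8 CPM in W1 to W3, at 328 to 393 CPM in rd10 batch 1 and at 277 to 354 CPM in batch 2.

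Nr1d2, the gene of REV-ERB beta, was the steadiest member. All libraries lay between 259 and 283 CPM, W4 at 276.4 CPM beside W1 to W3 at 276.3, 280.5 and 274.1 CPM. D1, D2 and D3 held 274, 283 and 272 CPM, and H1, H2 and H3 held 282, 262 and 259 CPM. The difference of rd10 DMSO from WT was -0.00 (SE 0.07) on the log2 scale and 0.01 (SE 0.05) without W4.

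Dbp, a direct target of CLOCK and BMAL1 and an output gene with a strong rhythm in many tissues, also split by batch. It stood at 105.4, 112.7 and 93.4 CPM in W1 to W3 and at 156.4 CPM in W4. D1 and D2 held 162.9 and 162.5 CPM and D3 held 98.5 CPM, while H1, H2 and H3 held 189.5, 151.4 and 143.7 CPM. D3 was the only rd10 library within the range of W1 to W3. The log2 fold change of rd10 DMSO against WT was 0.27 (SE 0.23) with all libraries, 0.46 (SE 0.19) without W4 and 0.66 (SE 0.07) without W4 and D3. Exons of Sphk2 overlap those of Dbp on the other strand, and Sphk2 was at 8.98 to 19.0 CPM in the 10 libraries.

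**Figure D1:**
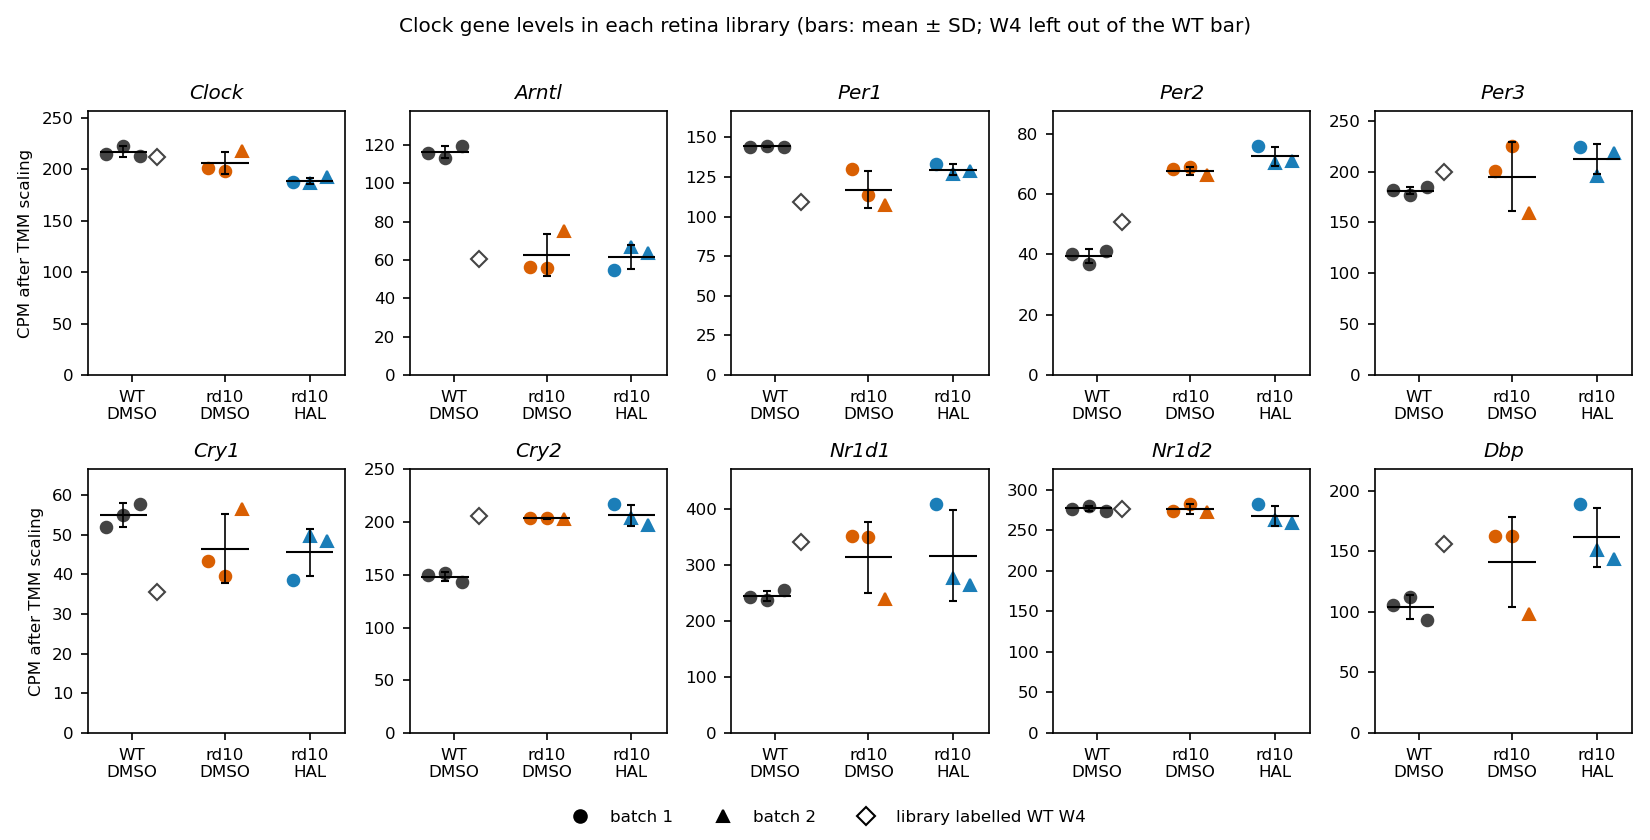
Level of each clock gene in each library, in CPM after TMM scaling (vertical axes from 0), for WT DMSO, rd10 DMSO and rd10 HAL. Circles are batch 1, triangles batch 2 and the open diamond the library labelled WT W4, with horizontal lines at the mean and bars of ± SD of 3 libraries each. Arntl is below W1 to W3 in every other library, and the triangles of Nr1d1 and Dbp lie below the circles of rd10.

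In the fit of rd10 DMSO against WT with all 7 libraries, edgeR's quasi-likelihood test called 0 of 11698 genes (0%) at an adjusted p under 0.05, so no member was called. At an unadjusted p under 0.05 it held 3108 genes, and DESeq2 called 589. Leaving out W4 alone brought the count to 7280 genes, or 62.2% of 11696, of which 32.3% of genes were higher and 29.9% lower. By that fit 4 of 10 members were called: Per2 and Cry2 higher, and Per1 and Arntl lower. The same 4 were the members in which the 6 rd10 libraries did not overlap with W1 to W3, a separation that 63.7% of all genes showed. With D3 left out as well, 8 of 10 members were called, beside 8460 genes or 72.3% of 11698: Per2, Per3, Cry2, Nr1d1 and Dbp higher, and Per1, Cry1 and Arntl lower. These shares come from comparisons in whose knowledge the members were chosen and are given as a description. The median log2 fold change without W4 was 0.06 over the members and -0.01 over all genes tested.

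**Figure D2:**
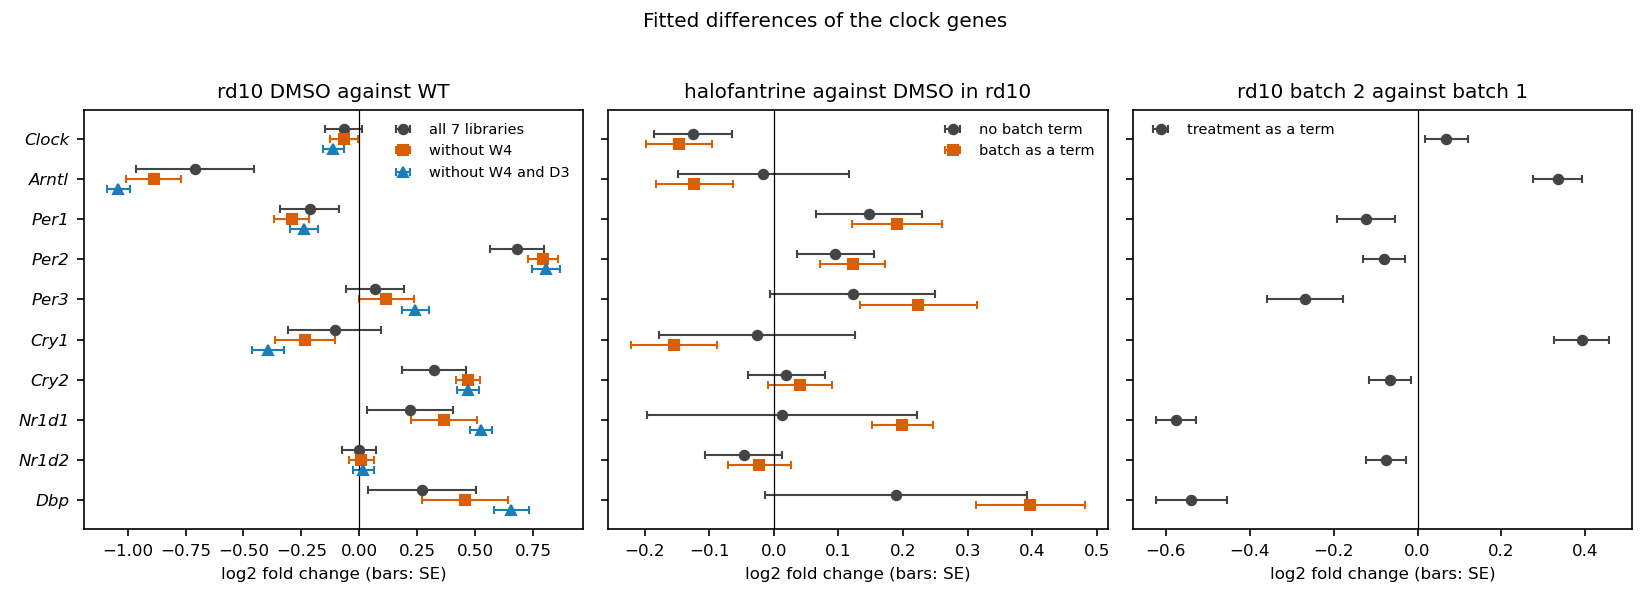
Fitted log2 fold change of each clock gene in the 3 comparisons (horizontal axes, bars of ± SE from edgeR), with symbols for the libraries or terms of the fit. Arntl lies furthest below 0 and Per2 furthest above 0 in rd10 DMSO against WT, and Nr1d1 and Dbp lie opposite to Arntl and Cry1 in batch 2 against batch 1.

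The members of W4 were placed between the other libraries. On a scale where the mean log2 CPM of rd10 batch 1 is 0 and that of W1 to W3 is 1, W4 lay nearer to rd10 batch 1 for 7 of 10 members, as it did for 87.5% of all genes. Arntl lay at 0.12, Cry2 at 0.04, Nr1d1 at 0.20, Dbp at 0.18 and Per3 at 0.47, and Cry1 at -0.42 and Per1 at -0.96 lay beyond rd10 batch 1. Per2 at 0.57, Clock at 0.78 and Nr1d2 at 1.20 were nearer to W1 to W3, and for Per1, Clock and Nr1d2 the gap that sets the scale was under 0.25. Of the other clock genes described further on, 25 of 26 lay nearer to rd10 batch 1 in W4.

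Halofantrine against DMSO was compared within the 6 rd10 libraries, to ask what the drug did to the clock genes. edgeR called 0 of 11692 genes (0%), with 557 at an unadjusted p under 0.05, and DESeq2 called 3. The members' log2 fold changes ran from -0.12 for Clock (SE 0.06) to 0.19 for Dbp (SE 0.20). Because 2 of the 3 halofantrine libraries but only 1 of the 3 DMSO libraries lie in batch 2, the batch enters this comparison, and a fit with batch as a term was set beside it.

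With the batch term, Dbp stood 0.40 higher under halofantrine (SE 0.08), Per3 0.22 (SE 0.09), Nr1d1 0.20 (SE 0.05), Per1 0.19 (SE 0.07) and Per2 0.12 (SE 0.05), all on the log2 scale. Cry1 stood at -0.15 (SE 0.07), Clock at -0.15 (SE 0.05) and Arntl at -0.12 (SE 0.06). Cry2 and Nr1d2 stood at 0.04 and -0.02. The activators and Cry1 were thus on one side of 0 and the Per genes, Nr1d1 and Dbp on the other. That fit too called 0 genes by edgeR, with 1943 at an unadjusted p under 0.05. In the same fit all 8 rod genes were below 0 under halofantrine, with a median of -0.25 and 4 of 8 at an unadjusted p under 0.05. Without the batch term all 8 rod genes were above 0, with a median of 0.12 and 0 of 8 at an unadjusted p under 0.05. The part of the rod genes in the members' values was not tested.

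Taken batch by batch, 8 of 10 members had the same sign in both, and Cry2 and Nr1d2 did not. Of the other clock genes described further on, 14 of 26 had the same sign in both. Dbp was 0.22 higher in H1 than in the mean of D1 and D2, and 0.58 higher in the mean of H2 and H3 than in D3. Nr1d1 was 0.23 and 0.17 higher in batch 1 and batch 2. Arntl was -0.04 and -0.21, and Cry1 was -0.10 and -0.20. Each batch has a single library on one side, H1 in batch 1 and D3 in batch 2, so these differences have no spread of their own, and that of batch 2 is also one between set names. Without D3 the fitted value of Dbp without a batch term was -0.01, and without H1 that of Nr1d1 was -0.22. The batch enters both values, since DMSO without D3 lies in batch 1 only and halofantrine without H1 in batch 2 only.

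The batches were compared within rd10 with treatment as a term. edgeR called 542 of 11698 genes (4.63%), 3.09% of genes higher and 1.55% lower in batch 2. Among the members it called 4 of 10: Nr1d1 and Dbp lower, and Cry1 and Arntl higher in batch 2. For Nr1d1 the log2 fold change was -0.58 (SE 0.05), a 1.49-fold lower level, and for Dbp -0.54 (SE 0.08). For Cry1 it was 0.39 (SE 0.07) and for Arntl 0.33 (SE 0.06). Per3 stood at -0.27 (SE 0.09), not called, with -0.12 without D3 and -0.42 without H1, where it was called. Per1, Per2, Nr1d2, Cry2 and Clock lay between -0.12 and 0.07. This contrast was known when the members were chosen, and the count is given as a description.

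The batches were also compared within each treatment, where 1 side is always a single library, D3 under DMSO and H1 under halofantrine. These differences thus have no spread of their own, and D3 carries another set name than H2 and H3. For all 10 members the difference of batch 2 from batch 1 had the same sign under DMSO and under halofantrine. How many of all genes did so was not computed, and the count is a description. Some of the values were near 0, such as Cry2 at -0.01 under DMSO and Clock at 0.01 under halofantrine. Nr1d1 was -0.55 between D3 and the mean of D1 and D2, and -0.60 between the mean of H2 and H3 and H1. Dbp was -0.72 and -0.36, Arntl 0.42 and 0.25, and Cry1 0.44 and 0.34. The libraries of the batches did not overlap for 5 of 10 members (Cry1, Arntl, Nr1d1, Nr1d2 and Dbp), as for 27.9% of all genes.

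The call on Nr1d1 held when any one rd10 library was left out, with log2 fold changes of -0.60 to -0.55. Those on Arntl and Cry1 were lost without D1, D2, D3, H2 or H3, and that on Dbp without D1, D2, D3 or H3. Without D3, Dbp stood at -0.36, Arntl at 0.25 and Cry1 at 0.34, and without H1 they stood at -0.72, 0.42 and 0.44. Dropping the treatment term left Nr1d1 called and Dbp, Arntl and Cry1 not called.

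Batch 2 also held more rod RNA. All 8 rod genes were called higher in batch 2, with a median log2 fold change of 1.45, and their sum per library is given above. Among the other marker lists, 2 of 6 cone genes were called higher and 1 of 4 genes each of Muller glia, bipolar and amacrine cells was called lower. Of 4 gliosis genes, Lcn2 was called higher at 0.65 and Gfap lower at -0.34. No gene of microglia, ganglion cells or blood was called, and the 2 haemoglobin genes summed to 7.48 to 19.5 CPM in rd10 batch 1 and to 21.4 to 64.4 CPM in batch 2, without overlap. The pigment epithelium genes Rpe65, Ttr and Lrat, which enter a retina with its attached neighbour tissue, summed to 103 to 222 CPM in rd10 batch 1 and to 75.7 to 147 CPM in batch 2, and none was called. The part of these cell types in the clock differences was not tested.

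The position of each batch 2 library between rd10 batch 1 and W1 to W3 differed from gene to gene. For the 7 members whose gap exceeded 0.25 on the log2 scale, the mean position of batch 2 ran from 0.04 for Per2 to 0.86 for Nr1d1, with Cry1 at 0.78, Per3 at 0.76 (1.75 in D3, 0.56 in H2 and -0.04 in H3), Dbp at 0.56, Arntl at 0.28 and Cry2 at 0.10. For the 8 rod genes it ran from 0.27 to 0.43 with a median of 0.31. Nr1d1 of D3, H2 and H3 stood at 1.05, 0.70 and 0.82, each above the highest rod gene of the same library, which stood at 0.50, 0.41 and 0.39. Per2 of the same libraries stood at 0.12, 0.01 and -0.00, each below the lowest rod gene, at 0.32, 0.27 and 0.20. So within the same libraries Nr1d1 lay near the WT level while Per2 stayed at that of rd10 batch 1.

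**Figure D3:**
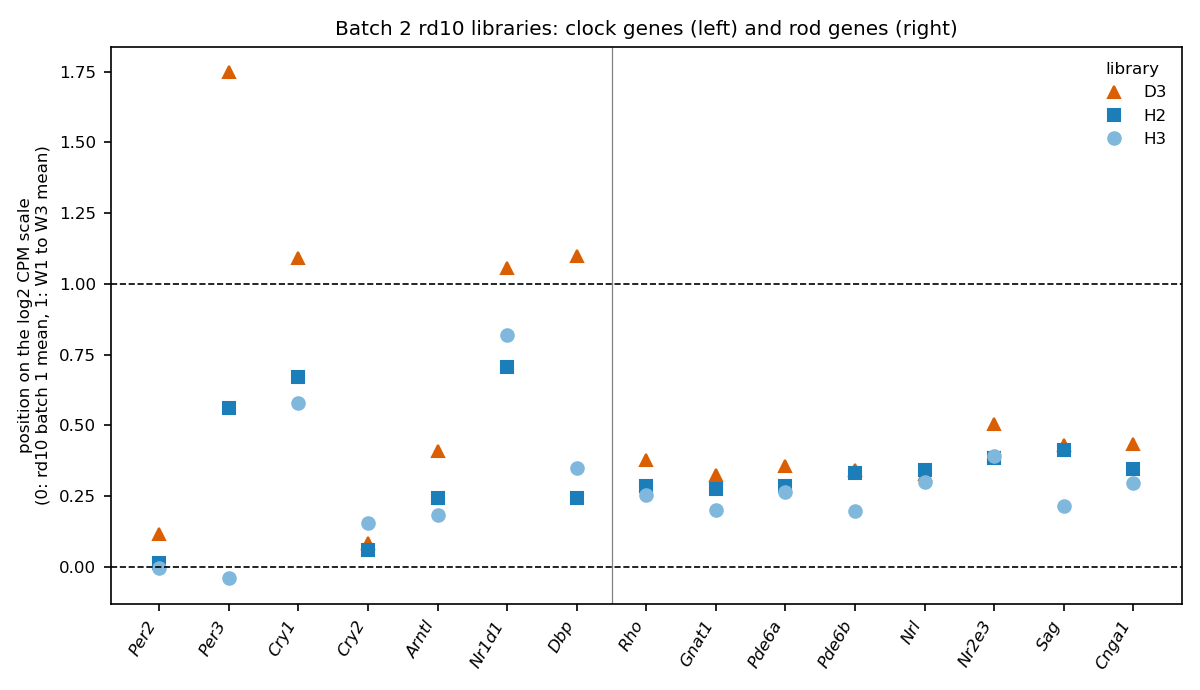
Position of the batch 2 libraries D3, H2 and H3 (vertical axis, no unit) between the mean log2 CPM of rd10 batch 1, set at 0, and that of W1 to W3, set at 1, for the 7 clock genes with a gap over 0.25 and the 8 rod genes. The rod genes lie between 0.20 and 0.50, Nr1d1 lies above them and Per2 and Cry2 below.

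To set the opposed groups against each other in 1 number, a clock contrast was formed for each library, the mean log2 CPM of Per1, Per2, Per3, Nr1d1, Nr1d2 and Dbp minus that of Arntl, Clock and Cry1. It was 0.36, 0.31 and 0.29 in W1, W2 and W3 and 1.05 in W4. In rd10 it was 1.14, 1.20 and 0.51 in D1, D2 and D3 and 1.38, 0.94 and 0.97 in H1, H2 and H3. All rd10 libraries were above W1 to W3, with D3 nearest to them. Batch 1 of rd10 had 1.24 ± 0.13 (SD, n = 3), batch 2 had 0.81 ± 0.25 (SD, n = 3) and W1 to W3 had 0.32 ± 0.04 (SD, n = 3).

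The contrast was 0.45 higher in rd10 DMSO than in WT, and 0.63 higher without W4. Under halofantrine it was 0.15 higher than under DMSO, within the SD of 0.38 among the DMSO libraries, and without D3 it was -0.07. Dbp minus Arntl was -0.13, -0.01 and -0.36 in W1 to W3 and 1.36 in W4. It was 1.53, 1.53 and 0.39 in D1 to D3 and 1.79, 1.18 and 1.17 in H1 to H3. No p is attached to these scores, since their genes were chosen with the result known.

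**Figure D4:**
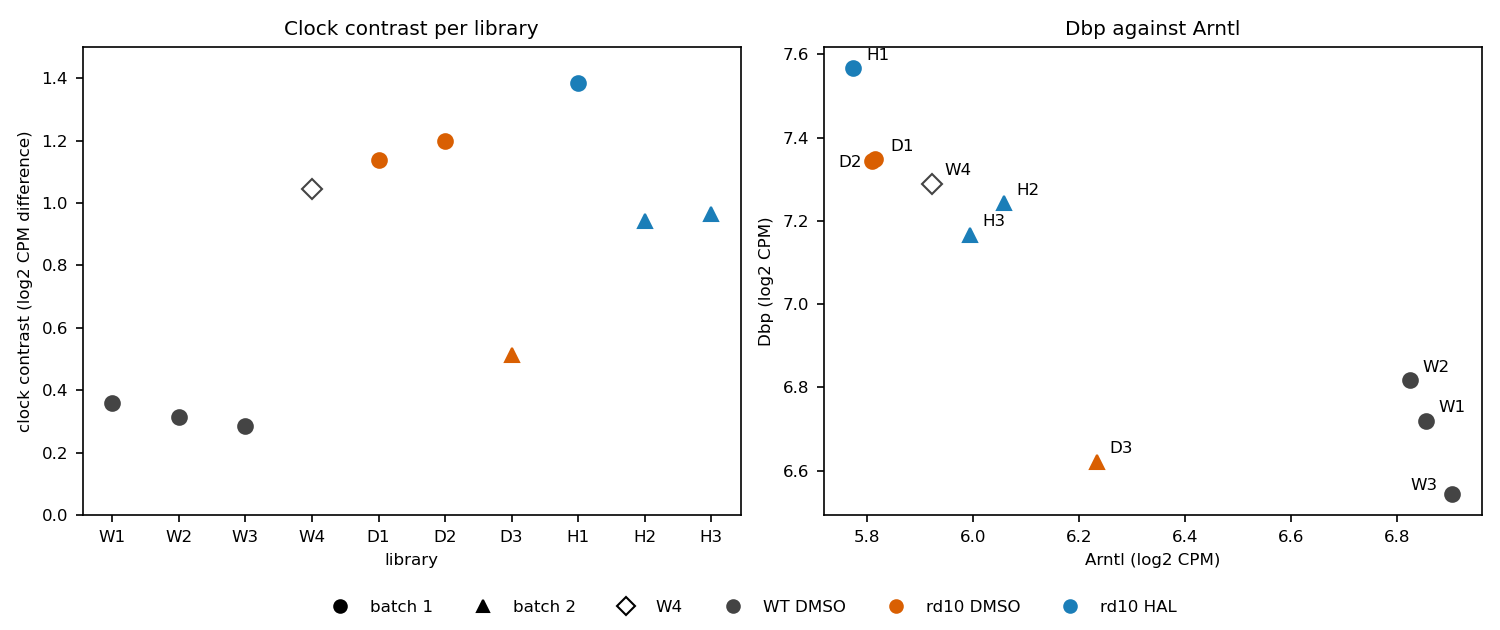
Left, clock contrast of each library (vertical axis, difference in log2 CPM), and right, log2 CPM of Dbp against that of Arntl, with colours for the groups, triangles for batch 2 and an open diamond for W4. W1 to W3 lie at 0.29 to 0.36, rd10 batch 1 at 1.14 to 1.38 and D3 at 0.51, and Dbp is high where Arntl is low except in D3, which has a Dbp level like that of W1 to W3 with less Arntl.

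Across the 6 rd10 libraries, each first centred on the mean of its treatment, Arntl and Cry1 went together (Pearson's r = 0.97, n = 6 libraries) and Dbp went with Nr1d1 (r = 0.93, n = 6). Dbp and Arntl went in opposite directions (r = -0.98, n = 6). Per2 went with Nr1d2 (r = 0.94, n = 6), although neither moved far. These 6 libraries share depth, batch and rod content as possible sources of joint movement, so the values are a description.

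The genes most like Dbp over the same 6 libraries were Agpat1 (r = 0.9998), Fam234b (r = 0.9997) and Zfhx2 (r = 0.9997). They and the genes for Arntl below were picked as the highest r among all named genes outside the members. Over 6 libraries such picked values can lie near 1 by selection alone and are a description. Agpat1, an enzyme of phospholipid synthesis, stood at 88.9, 88.8 and 59.7 CPM in D1 to D3 and at 88.3, 74.6 and 71.0 CPM in H1 to H3. Those most like Arntl were Gm29427 (r = 0.999), Rars2 (r = 0.998), the mitochondrial arginyl-tRNA synthetase, and Dnajc5 (r = 0.998), a chaperone of synaptic vesicles. None of these 6 is a gene of the clock lists.

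A wider set of 30 clock genes was examined, of which 26 were in the gene table. Without W4, 11 of the 26 were higher and 9 lower in rd10 DMSO than in WT by edgeR (adjusted p under 0.05), and with W4 none was called. Their 20 of 26 may be read against the 62.2% of all genes called by that fit. The median log2 fold change of the 26 genes was 0.10, against -0.01 over all genes.

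Among the further repressors that E-boxes drive, Bhlhe40 (DEC1) stood at 57.2 to 62.2 CPM in W1 to W3 and 116.7 to 121.6 CPM in rd10 DMSO, and was higher by 0.98 without W4 (SE 0.06, adjusted p = 2.24e-05). Its relative Bhlhe41 (DEC2) was lower by -0.44 (SE 0.07, adjusted p = 0.00100), and Ciart, also called Chrono, was higher by 0.47 (SE 0.16, adjusted p = 0.0362). Ciart stood at 36.4 CPM in D3 and at 24.6 and 25.7 CPM in D1 and D2, and without D3 as well its difference was 0.27 (SE 0.09, adjusted p = 0.0249). So these 3 repressors did not share a direction. With W4 the values were 0.70 for Bhlhe40, -0.35 for Bhlhe41 and 0.37 for Ciart, none of them called.

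The PAR bZIP factors Tef and Hlf bind D-boxes as DBP does. Hlf rose by 0.83 (SE 0.10, adjusted p = 0.000314) and Tef by 0.46 (SE 0.06, adjusted p = 0.000447) in rd10 DMSO without W4. Nfil3, which represses through the same boxes, was not called and stood at -0.11 (SE 0.10). With W4 Hlf stood at 0.55, Tef at 0.33 and Nfil3 at -0.08, not called. In batch 2 against batch 1 Hlf stood at -0.21 (SE 0.06, adjusted p = 0.0857) and Tef at -0.10 (SE 0.05, adjusted p = 0.192), neither past the threshold.

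Among the ROR receptors, which activate Arntl, Rorb, the form of neural retina, was lower by -0.74 (SE 0.13, adjusted p = 0.00223) and Rora by -0.47 (SE 0.07, adjusted p = 0.000671) without W4. With it they stood at -0.59 and -0.37, not called. Neither was called between the batches, where Rora stood at 0.06 and Rorb at -0.05.

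Of the kinases that phosphorylate PER, Csnk1e was higher by 0.50 (SE 0.07, adjusted p = 0.000473) in rd10 DMSO without W4 and Csnk1d stood at 0.04 (SE 0.06), not called. Wee1, a cell cycle kinase with clock-driven transcription, was higher by 0.92 (SE 0.15, adjusted p = 0.00118), at 6.71 to 6.88 CPM in W1 to W3. Timeless, Nampt, Gsk3b and Fbxw11 were also called higher. Called lower were Usp2 (-0.75, SE 0.10), a deubiquitinase of clock proteins, Sirt1 (-0.63, SE 0.13), a deacetylase that acts on BMAL1 and PER2, and Btrc, Csnk2a1 and Cipc, at -0.26 to -0.17. With W4 Csnk1e stood at 0.36, Csnk1d at 0.01, Wee1 at 0.67, Usp2 at -0.54 and Sirt1 at -0.48, and none was called.

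Between the batches only Usp2 of the 26 genes was called, higher in batch 2 by 0.35 (SE 0.05, adjusted p = 0.0167). It stood at 105, 100.4 and 99.7 CPM in D1, D2 and H1, at 128, 131 and 131 CPM in D3, H2 and H3 and at 179 to 193 CPM in W1 to W3. That call was lost without D2, D3, H2 or H3. Sirt1 stood at 0.31 (SE 0.07, adjusted p = 0.0532). The batches did not overlap for 7 of the 26 genes, beside the 27.9% of all genes. For the 14 of them with a gap over 0.25, batch 2 lay at a median position of 0.13. Under halofantrine 0 of the 26 genes were called, 1 at an unadjusted p under 0.05.

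A list of genes that feed the retinal clock or follow it had 9 of 16 members in the gene table. Drd4, the dopamine D4 receptor of photoreceptors and a rhythmic gene of the retina, stood at 100.1 to 110.4 CPM in W1 to W3 and at 16.4 CPM in W4. D1, D2 and H1 held 22.7, 26.7 and 25.5 CPM, and D3, H2 and H3 held 53.5, 39.0 and 52.8 CPM. It was higher in batch 2 by 0.98 (SE 0.14, adjusted p = 0.0135 by edgeR), and lower in rd10 DMSO than in WT without W4 by -1.61 (SE 0.30, adjusted p = 0.00230). With W4 it stood at -1.26 against WT, not called. Drd4 is at home in photoreceptors, and the rod genes were called in the same directions in both comparisons, and their part in its level was not tested.

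Adcy1, a calmodulin-activated adenylate cyclase, was lower by -1.29 (SE 0.06, adjusted p = 1.33e-05) in that comparison, and Adcyap1r1, the PACAP receptor, was higher by 0.78 (SE 0.08, adjusted p = 0.000164). With W4 they stood at -1.05 and 0.52, not called. In all, 5 of the 9 were higher and 3 lower without W4, beside 62.2% of all genes called, and with W4 none was called. Drd4 alone was called between the batches, where 4.63% of all genes were. Its call there was lost without D3, where it stood at 0.85 (SE 0.20, adjusted p = 0.130). Pde8b, a cAMP phosphodiesterase, and Drd2, a dopamine receptor, came next there, at 0.24 (SE 0.06, adjusted p = 0.0588) and -0.31 (SE 0.08, adjusted p = 0.0657). Under halofantrine none of the 9 was called, and the smallest adjusted p was 0.883.

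Signals that can reset or mimic the clock were read from 3 lists. Of 9 immediate early genes, which light induces, none was called between the batches, and Fos stood at -0.11 (SE 0.17) and Egr1 at -0.10 (SE 0.18). Of 5 glucocorticoid targets all had log2 fold changes above 0 in batch 2, from 0.34 for Klf9 (SE 0.06, adjusted p = 0.0277), which was called, to 0.93 for Fkbp5 (SE 0.20, adjusted p = 0.0505), which was not. Fkbp5 stood at 122.9 CPM in D3, at 61.3 and 60.6 CPM in H2 and H3 and at 40.8 to 50.2 CPM in rd10 batch 1. Its difference was 0.41 (SE 0.12) without D3, not called, and 1.44 (SE 0.11) without H1, where it was called. Of 6 temperature-responsive genes, Rbm3, a cold-induced RNA-binding protein, was called higher in batch 2 by 0.57 (SE 0.12, adjusted p = 0.0414). Without D3, Klf9 stood at 0.26 (SE 0.07, adjusted p = 0.165) and Rbm3 at 0.31 (SE 0.09, adjusted p = 0.197), neither called, and Klf9 was also lost without D1, D2, H2 or H3 and Rbm3 without D1, D2 or H3. None of the 3 lists had a gene called under halofantrine. In rd10 DMSO against WT without W4, 7 of 9 immediate early genes (3 higher, 4 lower), 3 of 5 glucocorticoid targets (2 higher, 1 lower) and 5 of 6 temperature-responsive genes (1 higher, 4 lower) were called, beside 62.2% of all genes. The immediate early gene Egr1 was higher by 1.97 (SE 0.18, adjusted p = 8.60e-05), and the heat shock gene Hspa1b was lower by -2.82 (SE 0.19, adjusted p = 3.52e-05). Hspa1a, whose near-identical sequence makes the division of reads with Hspa1b uncertain, stood at -2.60 (SE 0.21, adjusted p = 6.11e-05). Zbtb16 was higher by 1.52 (SE 0.21, adjusted p = 0.000603), and Fkbp5 by 1.32 (SE 0.39, adjusted p = 0.0202), or by 0.68 without D3 as well. With W4 no gene of the 3 lists was called, and these 5 stood at 1.29, -2.49, -2.27, 1.27 and 1.14 in the order given. The part of light, hormone or temperature in the clock differences was not tested.

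Transcript counts gave a readout of the same genes at another level. A single transcript held 97.4% or more of the counts of Cry1, Nr1d1 and Per2 in every library. For Arntl, the transcript Arntl-201 took 29.8% to 31.6% of the counts in W1 to W3 and 38.8% to 47.1% in the other 7 libraries, and Arntl-206 took 53.2% to 61.0% and 43.0% to 52.7%. In CPM of all transcript counts, Arntl-206 stood at 55.5 to 61.6 in W1 to W3 and at 24.6 to 39.5 in the others, while Arntl-201 stood at 31.1 to 32.4 and at 23.2 to 31.6. The lower level of Arntl outside W1 to W3 thus lay mostly in Arntl-206. Both transcripts code for protein in GENCODE M21.

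Dbp was split among 5 transcripts whose shares varied within groups: Dbp-201 took 23.0% in D3, 50.1% in H2 and 34.0% to 43.1% in the other libraries. As the estimates divide reads among transcripts that share sequence, such shares are less certain than the gene totals. Npas2, a relative of Clock absent from the gene table, summed over its transcripts to 2.19 to 2.65 CPM of the transcript counts in W1 to W3, 5.28 CPM in W4 and 4.59 to 5.87 CPM in rd10.

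On the question of phase, the design gives 1 time point per mouse and no hour of collection. Between rd10 batch 2 and batch 1 the opposed genes moved in opposite directions, with Nr1d1 and Dbp lower and Arntl and Cry1 higher in batch 2. The signs were the same under both treatments, each of which has a single library in 1 batch. The clock contrast was 1.24 in batch 1 and 0.81 in batch 2. Per2 at -0.08, Nr1d2 at -0.08, Tef at -0.10 and Ciart at 0.11 (-0.29 without D3, and 0.53 and called without H1) were not called between the batches, which did not overlap for Nr1d2 and Tef and overlapped for Per2 and Ciart. The rod genes differed between the batches as well. Between rd10 and W1 to W3, Arntl was lower and Per2 higher, which are opposed genes. A fit without D3 as well was added after seeing the data. There Nr1d1 at 0.52, Dbp at 0.66 and Per3 at 0.24 were on the side of Per2, and Cry1 at -0.39 on that of Arntl. With D3 kept, Nr1d1 stood at 0.37, Dbp at 0.46, Per3 at 0.12 and Cry1 at -0.23, none of them called. The clock contrast of W1 to W3 was 0.32. Per1 was lower, Nr1d2 stayed between 259 and 283 CPM and Cry2, a nearly flat gene, was higher. A shift in phase, a change in amplitude and a change in the cells of the retina cannot be told apart with these samples. The same holds for whatever batch and set stand for, which the labels do not say.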

How the data were processed

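Polyadenylated RNA of 10 retina libraries was sequenced by the authors from stranded libraries. The authors estimated transcript abundance with Kallisto against Ensembl release 115, and the submitters' processing notes name GRCm39, edgeR and limma. They deposited estimated counts per transcript and per gene, unscaled. The CPM table the authors deposited was used as a signal scaled by 1 factor per library, and only as an alternative. The deposited table of the authors' own halofantrine comparison (fold changes, p-values) was not used. Symbols were found for 11492 of 11702 gene identifiers.

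Here the counts were rounded, filtered with filterByExpr, scaled by TMM and fitted over all genes in edgeR 4.0.16 (R 4.3.3), using its quasi-likelihood F test and Benjamini-Hochberg adjusted p-values, with standard errors derived from the F statistic. Alternatives were DESeq2 1.42.0, limma-voom (limma 3.58.1), other scalings, no filter, all 10 libraries in 1 fit, a batch term, no treatment term and leaving out each library; leaving out W4 together with D3 was added after seeing the data. The fits were tested on simulated data. Log2 CPM used a prior count of 2 (0.5 as an alternative). Total counts limit the precision, and the labels do not say more of the mice than a number, so p-values measure the spread between these samples. Libraries of a group were distinct (chi-square per gene 4.48 or more).

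The members, the gene lists and the tests were chosen with earlier results of these data known. Text names all members, every other clock gene called (at most 10 per direction and comparison) with some fixed others, the 3 genes of smallest p in the further lists, and the 3 genes most like Dbp and Arntl. Not every gene of that rule is given. GRCm38.p6 promoter windows and GENCODE M21 were of another build than the authors' files and served for sequences, transcript names and exon overlap.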

Additional observations from a re-analysis of the deposited data

Results flagged for a closer look

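In the WT group of 4 libraries, 1 library lay far from the other 3 for 4 of 11 measures tested (the 10 members and the clock contrast), and it was W4 each time. The gap to its nearest neighbour, as a share of the whole range of the group, was 0.971 for Per1, 0.876 for Cry2, 0.892 for Arntl and 0.902 for the clock contrast. Chance alone marks about 1 in 20 groups in this way, and 28.2% of all genes marked W4 in it; the count over the members is a description. W4 was at 109.5 CPM for Per1, 206 CPM for Cry2 and 60.7 CPM for Arntl, and it also had the lowest rod gene sum of all 10 libraries, 2443 CPM.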

How the results depend on the processing

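In rd10 DMSO against WT edgeR called 0 genes, DESeq2 called 589 (91 higher, 498 lower), leaving out 1 library gave 0 to 7280, the upper value without W4, and the added fit without W4 and D3 gave 8460. For halofantrine against DMSO the count was 0, with 3 by DESeq2 and 0 to 7 on leaving out 1 library (7 without D2, 1 without D1). Between the batches it was 542, with 1419 by DESeq2 (49.4% of them higher, against 66.6% by edgeR), 218 without the treatment term and 91 (without D3) to 2638 (without H1) on leaving out 1 library; it was 212 to 217 without D1, D2, H2 or H3. Limma-voom, the other scalings and the lack of a filter kept the counts within 1.5 times. Scaling by library size alone moved the median of all genes in rd10 DMSO against WT to 0.14. Over all alternatives, 379 values of the members stayed on their side of the threshold and within the spread, 15 passed the threshold only under the alternative, 17 were called only in the fit reported, 9 moved by more than the spread and no called value changed sign. The difference in clock contrast was 0.33 to 0.67 (rd10 DMSO minus WT), -0.07 to 0.27 (halofantrine minus DMSO) and -0.51 to -0.29 (batch 2 minus batch 1) on leaving out 1 library, and it moved by less than the spread with the deposited CPM or the other prior count. The causes of these changes were not tested. No paired analysis was possible because the labels tie no mouse of a group to a mouse of another group.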
